A study of Caenorhabditis elegans with 2 samples.

Results

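The srh and sri genes of Caenorhabditis elegans were examined as 2 families of chemoreceptor genes, taken as every protein-coding gene of the Ensembl annotation of WBcel235 (the same assembly as ce11) whose symbol is srh- or sri- followed by a number. There were 281 such genes, 220 srh and 61 sri, among 19973 protein-coding genes on the nuclear chromosomes. The symbols srh-57 and srh-228 each belong to 2 gene IDs, which were counted separately. Another 1028 genes carried the symbol of one of the other chemoreceptor families. Most of the 281 lay on chromosome V, with 201 genes (180 srh and 21 sri), and on chromosome II, with 58 genes (27 srh and 31 sri).

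Nematode chemoreceptors of this kind are membrane-spanning proteins of the G-protein-coupled receptor class, and their genes stand in tandem arrays. A receptor gene is typically active in a single pair or a few pairs of sensory neurons, where the protein is carried to the cilium and signals through G-protein alpha subunits to cyclic nucleotide channels or TRP channels. The srh and sri families belong to the Str superfamily of these receptors, and the ligands of most of their members are not known. The tagged protein, RCOR-1, is a C. elegans member of the CoREST group of corepressors, which are known to bring histone deacetylases and the demethylase LSD1 to chromatin.

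Whole young adults, 65 hours old, were sampled as 2 biological replicates of strain RW12222, and had been synchronised as larvae that were starved at the L1 stage after bleaching. The animals carried rcor-1::TY1::EGFP::3xFLAG, made by CRISPR insertion at the rcor-1 gene on chromosome I, so both replicates express the tagged protein and no sample lacked it. Chromatin was sheared by sonication and precipitated with an antibody against GFP, and the deposited values were regions with a summit and a signal, the authors' measure of strength in a unit that the sources used here do not define. Whole animals were used, so binding in few cells and weak binding in many cells cannot be told apart. There was a single group, so no condition was compared and no p-value was computed.

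Almost none of the srh and sri genes carried an RCOR-1::EGFP peak. In the conservative list, made between both replicates at an irreproducible discovery rate (IDR) of 0.01 or less, 4 of the 281 genes had a summit within 500 bp of an annotated 5' end (1.42%, 95% Wilson interval 0.555 to 3.60%). Across all protein-coding genes the share was 7.05%. The genes were sri-5, srh-16, srh-269 and srh-2, and the same 4 were found in the other thresholded list, where the share of all protein-coding genes was 7.23%. In the peaks called from replicate 1 alone 3 of them were found, without srh-2 (5.0% of all protein-coding genes), and in those of replicate 2 all 4 were found (4.73% of all protein-coding genes). Within the families, 3 of 220 srh genes (1.36%) and 1 of 61 sri genes (1.64%) carried a peak, and the intervals of both shares overlapped. In the remaining families only 2 of the 1028 genes had a peak, srd-44 and srw-95.

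Regions of the ranked lists, which hold both the peaks and many weaker regions, are called candidate regions here. They too were found at a smaller share of these genes than of all genes. In the ranked list made between replicates 54 of the 281 genes (19.2%, interval 15.04 to 24.2%) had a candidate summit within 500 bp of a 5' end, beside 44.8% of all protein-coding genes. The share was 18.6% for srh and 21.3% for sri. With a window of 200 bp the genes with a peak were 2, srh-16 and srh-2, beside 3.55% of all protein-coding genes, and those with a candidate were 23, beside 27.0%. Among the 17 chemoreceptor families with 20 or more genes the candidate share with the window of 500 bp ran from 2.86% to 21.3%. The sri family was the highest of the 17 and srh stood at place 13 from the lowest, but the intervals of most families overlapped.

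**Figure D1:**
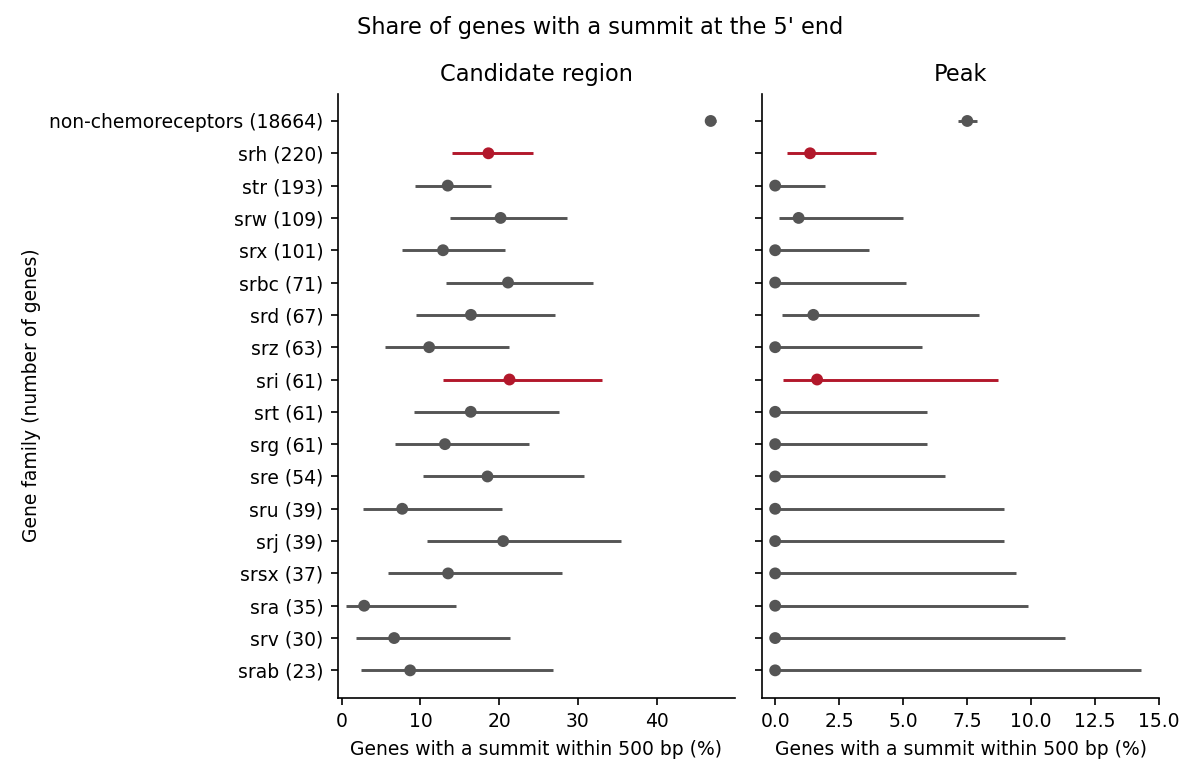
Share of genes with a summit within 500 bp of a 5' end (x axes, percent) for the 17 chemoreceptor families with 20 or more genes and for the 18664 genes outside these families (y axis, number of genes in brackets). Points are shares in the ranked list made between replicates (left) and the conservative peak list (right), lines are 95% Wilson intervals, and srh and sri are in red. Every family lay below the genes outside the families in both panels.

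The strongest srh peak was that of srh-16 (chrV:12291861-12294196, plus strand). Its summit was 60 bp upstream of the 5' end, in a peak region at chrV:12291777-12291879 of ce11. The signal was 186 in the conservative list, rank 244 of 2324 nuclear peaks. It was 82.9 in replicate 1 and 107 in replicate 2, with summits 48 and 49 bp upstream of srh-16. Both replicates thus placed the summit within 1 bp of each other. The lists of both replicates have their own scales, so the signals are not compared between them. The peak region was 103 bp long, of which 45.6% was G or C.

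The peak of srh-269 was next to a tRNA gene. The srh-269 gene lies at chrV:16590156-16592042 on the minus strand, and the summit was 308 bp upstream of its 5' end. A tRNA gene, WBGene00014499 (chrV:16592237-16592308, minus strand), had its 5' end 42 bp from the summit, so the summit was just upstream of the tRNA gene. An annotated non-coding RNA, T03E6.13, overlaps the tRNA gene on the opposite strand, with its 5' end 133 bp from the summit. The gene of the cathepsin L protease, cpl-1, ends 222 bp from the summit on the other side. The signal was 115 in the conservative list (rank 718), 57.6 in replicate 1 and 50.2 in replicate 2, and both replicates placed the summit 307 and 299 bp upstream of srh-269. The tRNA gene is shown, 5' to 3' on its own strand from the RefSeq genome of ce11, because RNA polymerase III genes carry their promoter inside the gene. Capitals mark a match to GTTCNANNC, the core letters of the B box, 1 of the inner promoter elements.
tRNA gene beside srh-269: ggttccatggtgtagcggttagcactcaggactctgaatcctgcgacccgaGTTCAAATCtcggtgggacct
The match begins at base 52 of the 72 bases. Of 612 annotated tRNA genes 587 (95.9%) held these letters on their own strand, and on either strand they were in 33 of the 281 (11.7%) srh and sri genes' 300-bp windows, from 250 bp before to 50 bp after the 5' end, and in 8.74% of those of all protein-coding genes. The letters were widened after a stricter form was seen not to occur in this gene. The same 72 bases occur in 5 tRNA genes, of which 4 had a conservative summit within 500 bp, beside 348 of all 612 tRNA genes (56.9%). The tRNA gene beside srh-269, which was chosen for its peak, is 1 of those 4. Of the 31-base words in the srh-269 peak, 81.6% occur once in the genome, where those of the other conservative peaks at these genes were 100% unique, and the part of reads from other copies in this signal was not tested.

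The only sri peak, that of sri-5, lay between back-to-back genes. The sri-5 gene (chrI:11182795-11186206, plus strand) stands back to back with rsr-1, which encodes a serine- and arginine-rich protein related to a splicing coactivator, and the 5' ends were 732 bp apart. The conservative summit (peak chrI:11182401-11182680) was 254 bp upstream of sri-5 and 478 bp upstream of rsr-1, nearer to sri-5. Its signal of 192 was the highest of any srh or sri gene, rank 225. The signal was 71.4 in replicate 1 and 120 in replicate 2, with summits 274 and 262 bp upstream of sri-5.

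The srh-2 peak differed from the other 3 in place and in support. The gene (chrV:728301-734311, plus strand) has 7 annotated starts, 5 of them more than 3 kb inside the gene model, and its peak summit was 38 bp downstream of such an inner start and 3146 bp from the outermost one. The summit lay in an exon annotated as 5' UTR of the shorter transcripts, which is why no sequence is printed for it. Its signal was 85.8 (rank 1263), and a second summit at another inner start had 20.7. Replicate 2 had a peak there with a signal of 50.5, 57 bp downstream of the inner start. Replicate 1 had a candidate region of 26.02, with a −log10 IDR of 1.01, which is below the threshold score of 2. Replicate 1 therefore gave no peak at srh-2, and the call rests on replicate 2 and the list made between both.

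The neighbourhood of srh-2 held further regions. It stands back to back with icl-1, which encodes the glyoxylate cycle enzyme that joins isocitrate lyase and malate synthase, and the 5' ends of the gene models were 297 bp apart. The icl-1 gene had a conservative peak (signal 76.6) within its own body, 245 bp from its 5' end, and 542 bp from the start of srh-2. Inside srh-2 the conservative list held 4 summits, including 2 in the body upstream of the inner starts (signals 58.9 and 5.95). The ranked list made between replicates held 6 regions in icl-1 and 9 in srh-2. Apart from srh-2, no srh or sri gene model held a conservative summit within its body.

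**Figure D2:**
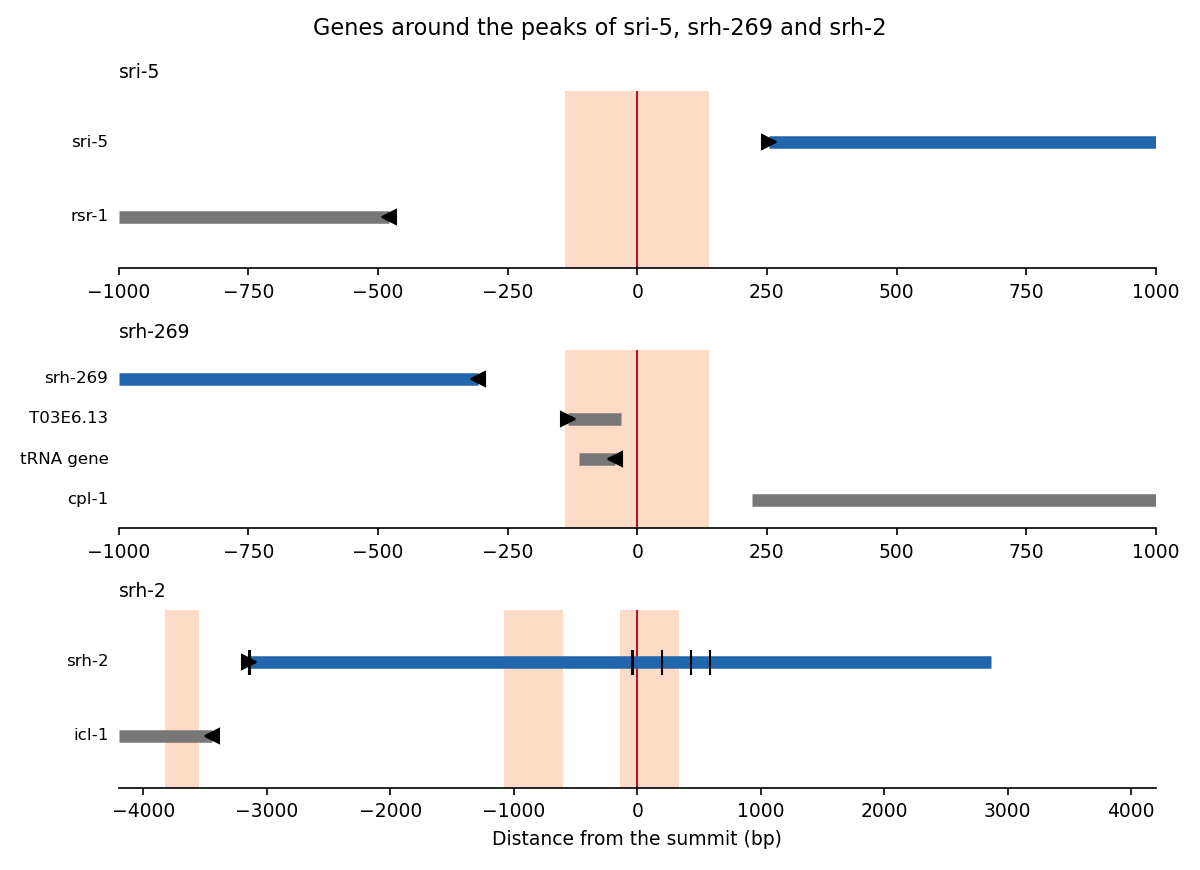
Genes around the conservative peaks of sri-5, srh-269 and srh-2, by distance from the summit (x axis, bp; the lowest panel has a wider scale). Blue bars are the srh or sri gene, grey bars other genes, arrowheads 5' ends with the direction of transcription, black ticks the 7 annotated starts of srh-2, shaded bands peak regions and the red line the summit. The summit of sri-5 lay between back-to-back genes, that of srh-269 beside a tRNA gene and that of srh-2 inside the gene.

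The neighbourhoods of the genes were then grouped. The srh-16 gene was left out because its neighbours are not reported here, so that 280 genes were read. The grouping was drawn up after the values of sri-5, srh-269 and srh-2 were seen, and is a description. A back-to-back partner within 1000 bp that was itself no chemoreceptor, with or without a peak of its own, was found for 21 of the 280 genes, with a median of 593 bp between the 5' ends. Of these 21 genes 2 carried a peak, sri-5 and srh-2 (9.52%, interval 2.65 to 28.9%). Partners were found from the 5' ends of gene models, but a peak was counted at any annotated start. The srh-2 summit lay at an inner start, 3146 bp from the start that faces icl-1, so it was not between these genes. Among all protein-coding genes outside both families 3379 had such a partner, with or without a peak, and 632 of these (18.7%) carried a peak. The partner had a peak for sri-5 and srh-2 alone, while in the other 19 pairs neither gene had one. For sri-5 a single summit lay in the windows of both genes, so the match is set by the window, and for srh-2 the summits of the pair were different ones. A partner from a chemoreceptor family was found for 11 genes, 0 with a peak, which allows up to 27.3%. Among the other protein-coding genes 117 had such a partner, and 4 of these (3.42%) carried a peak. A tRNA gene within 500 bp was found for srh-269 alone. Of 117 other protein-coding genes with a tRNA gene within 500 bp, 61 (52.1%) carried a peak. The remaining 247 genes had neither, and 0 of them carried a peak, beside 4.40% of the other protein-coding genes with neither. The count of 0 is set by how the grouping was drawn up and by srh-16 being left out, so it is not read against that share. With a partner limit of 500 bp in place of 1000 bp, sri-5 moves to the genes with neither, so that 1 of 271 carried a peak. Genes in tandem arrays share sequence and neighbours and are not independent of each other.

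The candidates below the threshold were read next. Among summits within 500 bp of a 5' end, the lowest −log10 IDR of a gene's strongest peak was 2.55, and the highest of a candidate below the threshold was 1.21, at srh-284. The threshold of 2 itself sets part of that gap, and the 2 conservative summits in the body of srh-2, outside the window, both had 2.18. Many candidates below the threshold had a −log10 IDR of 0.0768, the lowest among them. A candidate region here is therefore not necessarily a reproducible site. The strongest by signal was sri-39, with 53.4 in the ranked list between replicates (percentile 93.1 of its regions), 238 bp downstream of the 5' end in an intron. In its own list replicate 1 had 19.9 at sri-39 and replicate 2 had 24.8. Alone among the 10 strongest, sri-39 had no region in the window in the other ranked list. The second was srh-70, with 50.8, and its summit lay 177 bp upstream of srh-70 but only 50 bp from the 5' end of the snoRNA gene T21B4.20 and 232 bp from that of the microRNA gene cel-mir-77. Replicate 1 had 17.5 at srh-70 and replicate 2 had 35.8. The third was srh-284, with 49.3 at 419 bp downstream, and it was seen with 34.4 in replicate 2 and had no region in the window in replicate 1.

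The other 7 of the 10 strongest were srh-97, srh-217, srh-236, srh-290, srh-104, srh-216 and srh-271, with signals from 45.0 down to 33.8. At srh-217 the summit was 37 bp upstream of the back-to-back gene Y113G7B.28 and 398 bp upstream of srh-217. Of those 7, srh-97 had the widest gap in percentile between the replicates, with 9.31 in replicate 1 (percentile 13.8) and 31.8 in replicate 2 (percentile 89.5). At srh-104 replicate 1 had no region in the window, and at srh-216 replicate 2 had none. The strongest srh-271 candidate was 486 bp downstream of an inner annotated start, and 2060 bp from the 5' end of the gene model. A second (31.9) lay 138 bp upstream of the 5' end of the gene model, inside the model of the neighbouring gene sknr-1.

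Each replicate's own ranked list was read in the same way, with the genes that carry a peak included. Replicate 1 had a candidate at 61 of the 281 genes (43.4% of all protein-coding genes had one) and replicate 2 at 47 (39.0% of all). The genes with a candidate in both were 20, which is 32.8% of those of replicate 1 and 42.6% of those of replicate 2. A gene was counted in both where each replicate had any summit in its window, so the regions can lie at different sites. In replicate 1 only were 41 genes, and in replicate 2 only 27. For all protein-coding genes the shares found in both were 63.5% and 70.6%. All genes also had a candidate more often in each replicate, so these shares are not read as a difference in reproducibility. A region above percentile 90 of its list was found at 4 genes in replicate 1 (6.56% of those with a candidate, beside 23.1% for all protein-coding genes) and at 6 in replicate 2 (12.8%, beside 22.3%). The genes above it in both were 4. In the other ranked list of the series 69 genes had a candidate, beside 45.0% of all. A region of at least 1 deposited list lay in the window of 110 of the 281 genes (39.1%), beside 61.4% of all protein-coding genes, and the other 171 had none.

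**Figure D3:**
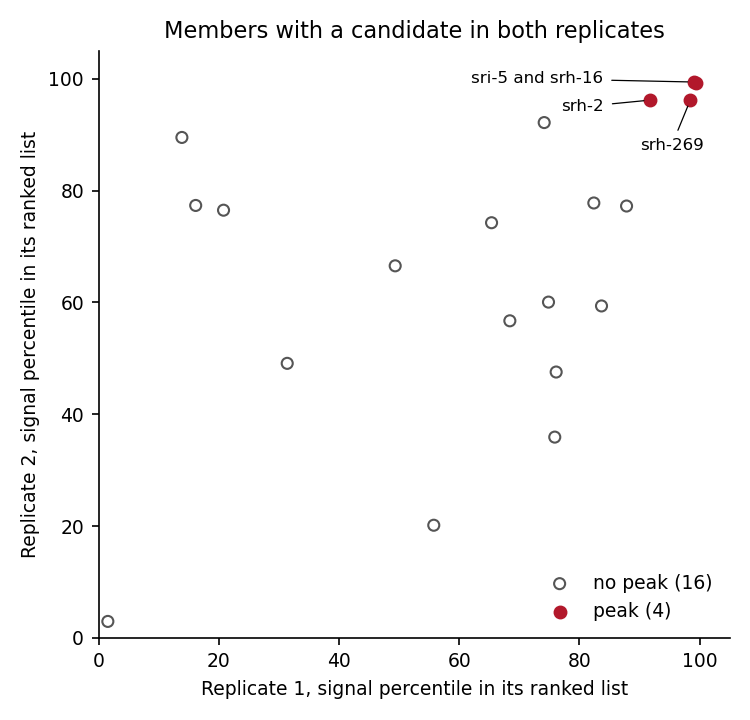
Signal percentile of the strongest region within 500 bp of the 5' end in replicate 1 (x axis) and replicate 2 (y axis), each within its own ranked list, for the 20 srh and sri genes with a candidate in both. A gene's regions need not lie at the same site in both replicates. Filled red points are the 4 genes with a conservative peak, which lie above percentile 90 in both, and open points are the other 16 genes, of which none does.

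In the ranked list between replicates the strongest region per gene had a median percentile of 54.5 (quartiles 30.5 and 74.1), beside 71.7 for all protein-coding genes, and 7 of the 54 (13.0%) were above percentile 90, beside 26.04%. For the other chemoreceptor genes the median percentile was 45.9, and 4.0% were above percentile 90. Of 70 pairs of a gene and a candidate summit 34 (48.6%) were upstream of the 5' end, beside 52.7% for all protein-coding genes. Without the 5 conservative summits 31 of 65 were upstream, with a median of 66 bp downstream. The side of the median changed with the list used, peaks included. The median was 59 bp upstream in the other ranked list (58.8% upstream) and 51 bp upstream in replicate 1 (58.6%), but 27 bp downstream in replicate 2 (49.1%). In the conservative list 86.0% of pairs of a gene and a summit over all protein-coding genes were upstream, with a median of 179 bp upstream. Of the 5 conservative pairs at srh and sri genes 3 were upstream, with a median of 60 bp upstream. By annotation 29 of the 70 lay between genes, 21 in introns, 18 in coding exons and 2 in 5' UTR exons.

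**Figure D4:**
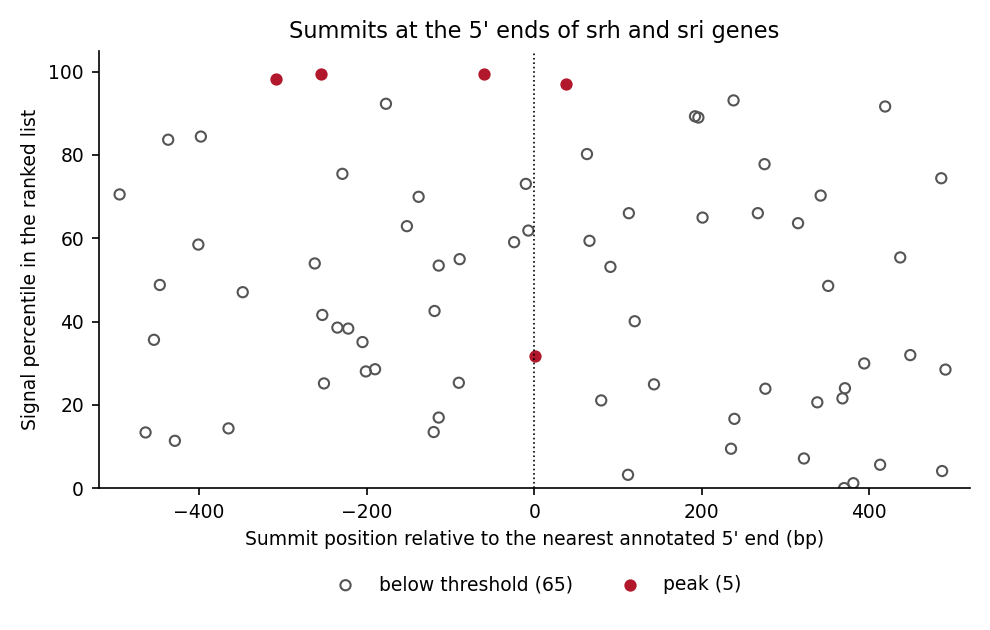
Position of each of the 70 candidate summits relative to the nearest annotated 5' end of its srh or sri gene (x axis, bp, negative upstream) and the percentile of its signal among all regions of the ranked list made between replicates (y axis). Red points are the 5 summits that are also in the conservative list, and open points the 65 below the threshold, which lie on both sides of the 5' end.

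The genes also lay far from peaks. From the 5' end of the gene model to the nearest conservative summit the median distance was 45.8 kb (quartiles 18.04 and 94.8 kb), beside 17.5 kb for the 18664 genes outside the chemoreceptor families. For the other chemoreceptor genes it was 37.7 kb. More than 100 kb from any peak were 65 of the 281 genes (23.1%), beside 5.45% of the genes outside the families. The farthest was srh-132 at 444 kb, and the nearest without a peak in the window was srh-89 at 831 bp. Within 5 kb of a summit were 12 genes (4.27%), beside 23.1% of the genes outside the families and 6.42% of the other chemoreceptor genes. On chromosome V alone the medians were 53.5 kb for 201 srh and sri genes and 24.3 kb for 4104 genes outside the families. On chromosome II they were 43.0 kb and 17.7 kb.

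**Figure D5:**
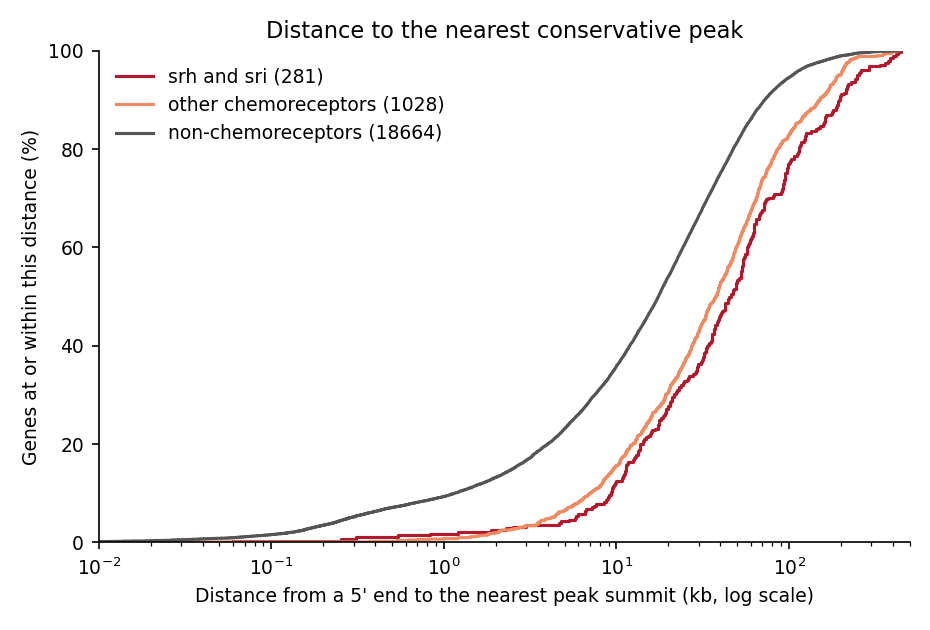
Share of genes (y axis, percent) whose 5' end lies at or within a given distance of the nearest conservative summit (x axis, kb, log scale), for srh and sri genes, other chemoreceptor genes and all other protein-coding genes. The median was 45.8 kb for srh and sri genes and 17.5 kb for genes outside the families.

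Place on the chromosome and in the array were read beside these counts. On chromosome V 3 of 201 srh and sri genes (1.49%) carried a peak, beside 250 of 4104 genes outside the families (6.09%). On chromosome II it was 0 of 58, which allows up to 5.17%, beside 7.04%, and on chromosome I 1 of 11, beside 10.4%. A chemoreceptor gene was the neighbour on both sides for 84 of the 281 genes, on one side for 116 and on neither for 81. The peaks were 0, 2 and 2 in these groups, beside 7.05% of all protein-coding genes, with sri-5 in the last of them. All 281 genes were counted here, srh-16 by this class of neighbour alone. The genes with a candidate were 15 (17.9%), 19 (16.4%) and 20 (24.7%), beside 44.8% of all protein-coding genes.

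Repeated sequence and base composition were measured because reads from near-identical copies may not be placed. In the 1000 bp around the 5' end a median of 99.8% of the 31-base words of an srh or sri gene occur once in the genome, and 237 of the 281 genes (84.3%) had 90% or more of such words, beside 87.8% of genes outside the families. Among these 237 genes 4 (1.69%) carried a peak and 46 (19.4%) a candidate, beside 7.73% and 48.4% of the genes outside the families with such windows. The median G and C content of the windows was 34.7%, beside 35.5%. With G and C from 35 to 40%, 29 of 114 srh and sri genes (25.4%) had a candidate, beside 53.8% of genes outside the families. From 30 to 35% it was 15 of 134 (11.2%), beside 36.7%. Below 30% it was 0 of 14, beside 22.8%, and from 40% up it was 10 of 19 (52.6%), beside 65.3%. The candidate share was lower at srh and sri genes within each range, but the lowest and highest ranges held only 14 and 19 of them. The candidate share was higher where G and C were higher, both within the srh and sri genes and within the genes outside the families. Whether base composition accounts for the lower share was not tested.

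Other genes of chemosensory signalling were read from a list of 50 genes for G proteins, guanylyl cyclases, channels, transport within cilia and the factors that set sensory cell fate, all of which were found by symbol. A conservative peak was found at 2 of them (4.0%, beside 7.05% of all protein-coding genes) and a candidate in the ranked list between replicates at 17 (34.0%, beside 44.8%). The gene gpa-1, for a G-protein alpha subunit, had a signal of 210 with the summit 229 bp upstream, 87.1 in replicate 1 and 117 in replicate 2. The summit of gpa-1 was nearer to the 5' ends of the non-coding RNA genes T19C4.16 and T19C4.11, at 12 and 29 bp, than to that of gpa-1. The gene daf-19, for the RFX factor of ciliated neurons, had a signal of 71.8 with the summit 260 bp upstream. In neither replicate's own peak list was daf-19 present, and its candidate regions had 25.6 in replicate 1 and 37.8 in replicate 2. The gpa-1 peak was thus called in each replicate alone, and the daf-19 peak in neither. A further gene of the list, gcy-35, for a soluble guanylyl cyclase, is named after its values were seen. It had a peak in replicate 2's own list only, with a signal of 50.8, no region in the window in replicate 1, and a candidate of 24.0 in the ranked list between replicates.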

How the data were processed

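Chromatin immunoprecipitation with an antibody against GFP was sequenced in 2 biological replicates of 1 group. Per the deposited file notes the authors aligned reads to ce11 and ranked and thresholded regions by IDR, while the sources used here name no aligner or peak caller. The deposited signal of a region is the authors' strength value in an undefined unit and was used to describe and rank regions within a list. The deposited −log10 IDR of the ranked lists is read like a −log10 q-value, and 2 is the threshold of 0.01. The deposited summit offset gave the summit position. Each replicate had its own thresholded and ranked lists, and the conservative and the ranked list between replicates used both. The control experiment was not analysed here, and the neighbours of srh-16 are not reported here. The files give no read counts, so the depth behind a signal is unknown.

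A gene had a peak or a candidate where a summit lay within 500 bp of any annotated transcript start (Ensembl release 115). Sequences came from the RefSeq genome of the same build. Shares have 95% Wilson intervals, for counting error alone. The counts of 0 on chromosome II and with a chemoreceptor partner are given with the share that 3 counts would make. The genes and lists were chosen with earlier results of these data known. Genes named were those with a peak in any list, the 10 strongest below the threshold, the neighbours at their summits and the signalling genes with a peak in the conservative list. The window search was tested on simulated data. Alternatives were other windows, lists, replicates left out, stronger peaks, nearest genes, single starts, overlap of regions and peaks at tRNA genes left out. Scripts used Python 3.11.15 with numpy 2.4.6, pandas 2.3.3 and scipy 1.17.1.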

Additional observations from a re-analysis of the deposited data

How the results depend on the processing

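The count of 4 genes with a peak was 5 with a window from 1000 bp upstream to 100 bp downstream, which adds srh-89, and 3 or 4 under the other lists and rules. With a window of 200 bp it was 2 (srh-16 and srh-2), the candidates were 23 in place of 54, and the median percentile was 59.1, and the cause was not tested beyond the narrower window itself. Restricting to the nearest 5' end of any gene, or leaving out peaks at tRNA genes, removed srh-269, and using the 5' end of the gene model alone, or peaks above the median signal, removed srh-2. With a replicate left out the genes with a peak were 3 to 4, the candidates 47 to 61, the median percentile 52.7 to 55.7, the share of summits upstream 49.1 to 58.6%, and the genes with a peak but neither a tRNA gene nor a partner 0 to 0. The upstream share was 58.8% in the other ranked list, and the cause was not tested. Alternatives chosen after seeing the data were partner limits of 500 bp, which gave 1 such gene, and of 2000 bp, which gave 0. No paired analysis was possible because there was a single group of 2 replicates and no test. Unknown depth limits every statement on absence: a gene without a region had none detectable in these lists.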
